A study of Mus musculus with 8 samples.

Results

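The 10 genes described here belong to the ATF4 branch of the integrated stress response. They are the eIF2alpha kinase genes Eif2ak1, Eif2ak3 and Eif2ak4, the transcription factor genes Atf4, Atf5, Ddit3 and Atf3, and the response genes Trib3, Chac1 and Ppp1r15a. They were taken by symbol from the 24411 genes of the deposited tables by a list of names, and all 10 passed the filter on low counts that left 13506 genes to be tested. In this pathway a kinase that senses a stress phosphorylates the translation initiation factor eIF2 on its alpha subunit. Most protein synthesis then slows, while the ATF4 messenger RNA, whose short upstream reading frames otherwise hold back its translation, is translated more. The ATF4 protein pairs with C/EBP factors and switches on genes for amino acid supply and for feedback on the response, and in heart and skeletal muscle the branch is known to respond to faults in mitochondria. The transcript levels measured here do not report the phosphorylation of eIF2 or the amount of ATF4 protein.

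Polyadenylated RNA was sequenced from whole hearts of 8 C57BL/6 mice, all taken 1 week after transverse aortic constriction, a narrowing of the aorta that loads the left ventricle with pressure. The control group was 4 MerCreMer mice, which carry a Cre recombinase flanked by mutated oestrogen receptor domains. The YY1 KO group was 4 mice with a cardiac-specific deletion of the transcription factor Yin-Yang 1 (YY1). The sources used here do not give the promoter that drives Cre, the ligand treatment or the ages of the mice, and no unoperated heart was analysed here, so every comparison is between genotypes under load.

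The libraries held 23869112 to 23966753 reads, of which 14582605 to 16000455 were assigned to genes. Yy1 averaged 36.1 ± 1.58 CPM (reads of a gene relative to the TMM-scaled size of its library; SD, n = 4) in the controls and 21.04 ± 2.55 CPM in the YY1 KO hearts. Cardiomyocyte markers summed to 50221 CPM or more in every library, which fits the labelled tissue. The sex of the mice went against the labels, which call all of them male. In controls 1 and 4 and in YY1 KO hearts 1 and 4, the RNA held 2156 to 3512 reads of Xist, the transcript of the inactive X chromosome, and 0 to 2 reads of the Y-linked genes Ddx3y, Uty, Kdm5d and Eif2s3y. In controls 2 and 3 and in YY1 KO hearts 2 and 3, the Y-linked genes had 2519 to 3018 reads and Xist had 0 to 6. Each genotype therefore held 2 Xist-positive and 2 Y-positive libraries, and the values of the 10 genes within each kind are given after the main comparison.

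Promoter sequence is shown first for the members whose start-site window holds a binding motif of this pathway. The windows are those of RefSeq on GRCm38.p6, the build also called mm10, and run from 250 bases before to 50 bases after an annotated start. All 10 members had a window, and Atf5 and Eif2ak4 had 2 each. The core of the C/EBP-ATF response element, TGATGNAA, was searched on both strands. It was found for Atf3, Chac1 and Trib3, 3 of the 10 members and 3 of their 12 windows, against 4.51% of all 27025 genes and 3.97% of all 32851 windows. In the lines below it is in capitals, as its reverse complement on the gene's strand, 5′ to 3′.
Atf3, chr1:191183390-191183489, minus strand, positions −156 to −57 from the start: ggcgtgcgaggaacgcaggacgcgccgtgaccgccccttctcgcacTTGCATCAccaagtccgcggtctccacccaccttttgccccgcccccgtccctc
Chac1, chr2:119351003-119351102, plus strand, positions −239 to −140 from the start: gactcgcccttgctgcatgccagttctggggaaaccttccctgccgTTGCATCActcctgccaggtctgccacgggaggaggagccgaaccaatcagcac
Trib3, chr2:152344028-152344057, minus strand, positions 4 to 33 from the start: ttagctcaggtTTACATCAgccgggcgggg

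Counted from the RefSeq start site, the match lay at −110 to −103 in Atf3, at −193 to −186 in Chac1 and at 15 to 22 in Trib3. These starts are not the ends of the GENCODE gene spans given further below. The Atf3 match, at 191183436 to 191183443, lies inside the GENCODE span of the gene, which ends at 191218039. The Trib3 match, at 152344039 to 152344046, lies just upstream of the GENCODE span, which ends at 152344032. Atf3 and Chac1 carry the same 8 bases, TTGCATCA, and Trib3 carries TTACATCA. The cyclic AMP response element TGACGTCA, a palindrome bound by ATF and CREB factors, occurred in 1.79% of all windows. Of the tested genes with a window 3.55% held it, with 4.05% of those higher, 2.87% of those lower and 3.57% of those not passing in YY1 KO hearts. Among the members it was in the window of Ppp1r15a at −12 to −5, where it is in capitals.
Ppp1r15a, chr7:45526269-45526368, minus strand, positions −100 to −1 from the start: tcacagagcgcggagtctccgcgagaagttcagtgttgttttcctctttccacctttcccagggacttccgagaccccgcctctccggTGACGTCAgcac

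A YY1 motif (AA, any base, ATGGCG, any base, C) and the endoplasmic reticulum stress element (CCAAT, any 9 bases, CCACG), searched on both strands, were in 1.51% and 0.119% of all windows and in 0 of the members' 12 windows, which says only that these letters are not there. A match is a description of sequence and not a bound site. Among the tested genes with a window, TGATGNAA was in 2.93% of the 2222 genes that were higher in YY1 KO hearts, 3.09% of the 1778 that were lower and 2.64% of the 6249 that did not pass. The element was in 5 of 18 amino acid response targets of ATF4 with a window, and in 0 of 18 genes of the ATF6 and IRE1 branches, the other arms of the response to misfolded protein. The stress element was in 8 of those 18 genes. Among the tested genes with a window, the YY1 motif was in 2.34% of those higher, 8.32% of those lower and 3.01% of those not passing.

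The deletion of Yy1 went with higher transcript levels of 6 of the 10 genes, Atf4, Atf5, Ddit3, Trib3, Chac1 and Ppp1r15a. The size ran from 1.42-fold for Atf4 to 10.8-fold for Trib3. None of the 10 was lower, and the 3 kinase genes and Atf3 did not pass the test (quasi-likelihood test of edgeR, p-values adjusted over the 13506 genes by Benjamini-Hochberg, threshold 0.05). At an unadjusted p under 0.05 and with DESeq2 the members lower were also 0. Over all tested genes, 21.6% were higher and 17.3% were lower, 38.9% in all. The median log2 fold change of the members was 0.62, against 0.013 over all tested genes. In 5 of the 10 genes every YY1 KO heart lay above every control, an ordering shown by 21.8% of all tested genes. The 8 hearts are separate mice, and in RNA from whole hearts fewer cells of a type and less RNA per cell cannot be told apart.

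**Figure D1:**
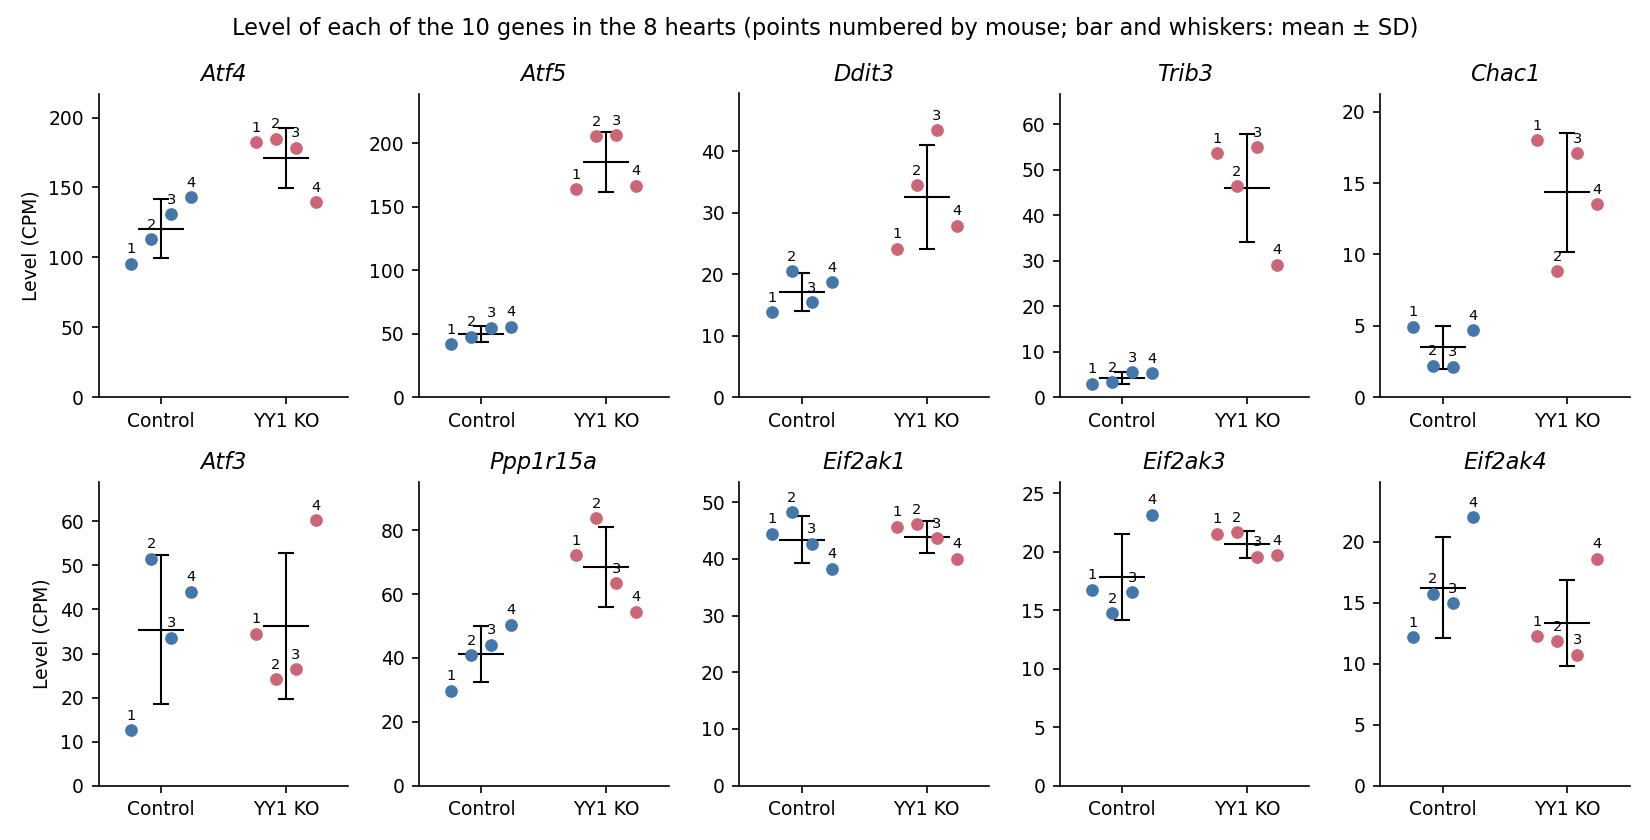
Level of each of the 10 genes in CPM, on axes that start at 0, with 1 point per heart numbered by mouse and a bar and whiskers for the mean ± SD of 4 controls (blue) and 4 YY1 KO hearts (red). Atf5, Ddit3, Trib3, Chac1 and Ppp1r15a have no overlap between genotypes. Atf4 overlaps through YY1 KO heart 4 alone and Eif2ak3 through control 4 alone, and Atf3, Eif2ak1 and Eif2ak4 overlap broadly.

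The kinases stand at the head of the pathway. Eif2ak1 encodes HRI, which responds to lack of haem and to mitochondrial faults (mm10 chromosome 5, 143817788 to 143904251, plus strand). It stood at 44.4, 48.2, 42.7 and 38.3 CPM in controls 1 to 4 and at 45.7, 46.1, 43.7 and 40.0 CPM in YY1 KO hearts 1 to 4. The log2 fold change of YY1 KO against control was 0.016 ± 0.091 (SE; 95% interval −0.19 to 0.22; adjusted p = 0.901, edgeR). The ranges overlapped almost entirely, and the coefficient of variation was 9.50% in controls and 6.34% in YY1 KO hearts. The direction of so small a difference changed with the scaling, to −0.014 with RLE size factors.

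Eif2ak3 encodes PERK, the kinase in the endoplasmic reticulum membrane that responds to misfolded protein (chromosome 6, 70844515 to 70905245, plus strand). Its levels were 16.8, 14.7, 16.6 and 23.1 CPM in controls and 21.5, 21.7, 19.6 and 19.7 CPM in YY1 KO hearts. Control 4 was above all the other hearts, while the other controls lay below all 4 YY1 KO hearts. The log2 fold change was 0.21 ± 0.14 (95% interval −0.10 to 0.53; adjusted p = 0.257, edgeR), and without control 4 it was 0.35 and passed (adjusted p = 0.0311).

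Eif2ak4 encodes GCN2, which responds to uncharged transfer RNA (chromosome 2, 118388618 to 118475234, plus strand). The controls measured 12.2, 15.7, 14.97 and 22.01 CPM and the YY1 KO hearts 12.2, 11.8, 10.7 and 18.6 CPM. In both genotypes heart 4 was the highest, and the ranges overlapped. YY1 KO hearts differed from controls by −0.28 ± 0.22 on the log2 scale (95% interval −0.78 to 0.21; adjusted p = 0.334, edgeR). The 95% interval was narrower for Eif2ak1 than for Eif2ak3 and Eif2ak4.

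Eif2ak2, which encodes PKR, the fourth kinase of eIF2alpha, known for its response to double-stranded RNA, lies outside the 10 genes. It averaged 23.3 ± 4.55 CPM in controls and 20.3 ± 3.66 CPM in YY1 KO hearts and did not pass either (log2 fold change −0.20 ± 0.18; adjusted p = 0.393, edgeR).

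Atf4, the central factor of the branch, lies on chromosome 15, 80255184 to 80257541, plus strand. It measured 95.4, 112.8, 131.0 and 143.1 CPM in controls and 182.3, 184.9, 178.4 and 139.5 CPM in YY1 KO hearts. All YY1 KO hearts but the fourth were above every control, and that heart was below control 4. The mean rose from 120.6 ± 20.9 to 171.3 ± 21.3 CPM (SD, n = 4 each), a log2 fold change of 0.51 ± 0.14 (95% interval 0.18 to 0.83; adjusted p = 0.0218, edgeR). This was the smallest of the 6 called differences, and the call did not hold without control 2 (adjusted p = 0.0667) or without YY1 KO heart 1, 2 or 3 (0.0528, 0.0515 and 0.0590).

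Atf5, a factor of the same family that is likewise translated through upstream reading frames and is known for the mitochondrial stress response, showed a larger difference (chromosome 7, 44812256 to 44816658, minus strand). It stood at 41.8, 47.5, 54.5 and 55.4 CPM in controls and at 163.7, 205.4, 206.1 and 166.4 CPM in YY1 KO hearts. The lowest YY1 KO heart was far above the highest control. The log2 fold change was 1.90 ± 0.13 (95% interval 1.61 to 2.18; 3.72-fold; adjusted p = 0.000109, edgeR). Atf5 shares 571 bases with Nup62 and 272 with Il4i1, which lie on the opposite strand. Counts of the gene's own strand were higher than counts irrespective of strand, 747 against 594 reads in control 1 and 3545 against 2758 in YY1 KO heart 1, and gave a log2 fold change of 1.93.

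Ddit3 encodes CHOP, a C/EBP-type factor induced by ATF4 and known for its part in stress-induced cell death (chromosome 10, 127290774 to 127296288, plus strand). Controls measured 13.8, 20.5, 15.5 and 18.7 CPM and YY1 KO hearts 24.2, 34.5, 43.4 and 27.9 CPM, with no overlap. This is a log2 fold change of 0.92 ± 0.20 (95% interval 0.48 to 1.37; 1.90-fold; adjusted p = 0.00626, edgeR). Reads on the strand opposite to Ddit3 made up 11.8 to 22.7% of its stranded reads, the highest share among the members. The gene shares 68 bases with Mars on that strand, and the annotation holds a further entry with the symbol Ddit3 on the same strand. With counts of its own strand the log2 fold change was also 0.92.

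Atf3, a factor induced by ATF4 and also by signals that bring up the immediate early genes, spread the most (chromosome 1, 191170296 to 191218039, minus strand). Its levels were 12.6, 51.5, 33.6 and 44.0 CPM in controls and 34.5, 24.2, 26.4 and 60.3 CPM in YY1 KO hearts. Control 1 was the lowest and YY1 KO heart 4 the highest of the 8 hearts. The means were 35.4 ± 16.9 and 36.3 ± 16.6 CPM, and the log2 fold change of 0.036 ± 0.42 had an interval from −0.91 to 0.98 (adjusted p = 0.952, edgeR). The coefficient of variation within genotypes was 47.7% and 45.6%, and the interval holds changes of up to about 2-fold in either direction. It is not a limit of detection. The sign turned with the hearts used, to −0.25 without control 1 and to −0.32 without YY1 KO heart 4. Control 1 also had the lowest summed level of 15 immediate early genes among the controls, 704.8 CPM against 980.5 to 1133 CPM in the other controls. In YY1 KO hearts 1 to 4 the sums were 860.5, 698.2, 698.7 and 746.6 CPM. There heart 1 had the highest sum, while heart 4 had the highest Atf3. The relation of Atf3 to these genes was not tested.

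Trib3 had the largest difference of the 10 genes. It encodes a pseudokinase that is induced by ATF4 and CHOP and that holds ATF4 activity back (chromosome 2, 152337422 to 152344032, minus strand). Controls stood at 2.96, 3.28, 5.50 and 5.25 CPM, from 42 to 87 reads each, and YY1 KO hearts at 53.7, 46.4, 55.0 and 29.1 CPM, from 467 to 904 reads. The lowest YY1 KO heart, the fourth, was still far above the highest control. The log2 fold change was 3.43 ± 0.27 (95% interval 2.82 to 4.04), which is 10.8-fold with an interval from 7.07 to 16.4 (adjusted p = 0.000172, edgeR). Of the 13506 tested genes, 51 had a log2 fold change at or above that of Trib3, the gene itself included.

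Chac1 encodes an enzyme that breaks down glutathione and is induced by ATF4, ATF3 and CHOP (chromosome 2, 119351229 to 119354381, plus strand). It measured 4.93, 2.21, 2.15 and 4.68 CPM in controls and 17.98, 8.83, 17.1 and 13.5 CPM in YY1 KO hearts. The groups did not overlap, and YY1 KO heart 2, not heart 4, was the lowest of its group. Its log2 fold change was 2.04 ± 0.34 (95% interval 1.28 to 2.80; 4.11-fold; adjusted p = 0.00195, edgeR). The controls rest on 31 to 74 reads each, and their coefficient of variation, 43.6%, was the widest among controls after that of Atf3.

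Ppp1r15a encodes GADD34, which brings protein phosphatase 1 to eIF2alpha and so ends the response (chromosome 7, 45522916 to 45526268, minus strand). Controls stood at 29.7, 40.9, 44.1 and 50.4 CPM and YY1 KO hearts at 72.1, 83.7, 63.3 and 54.5 CPM. The gap between the genotypes was narrow, with YY1 KO heart 4 just above control 4. Its log2 fold change was 0.73 ± 0.18 (95% interval 0.33 to 1.13; 1.66-fold; adjusted p = 0.0114, edgeR). The gene shares 717 bases with Tulp2 on the opposite strand, and counts of its own strand also gave 0.73.

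**Figure D2:**
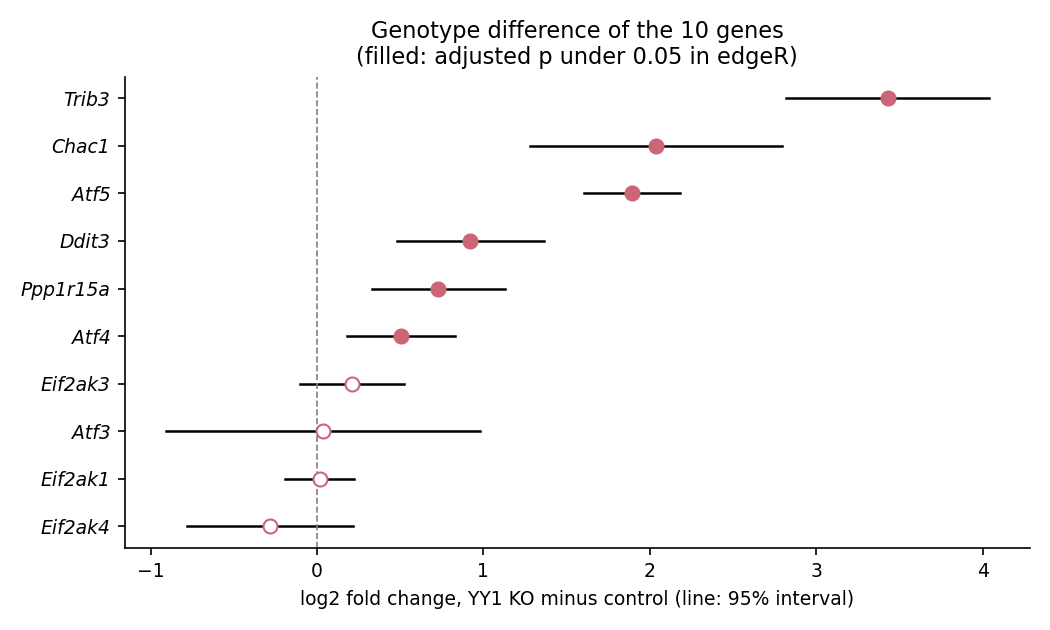
Log2 fold change of YY1 KO against control for the 10 genes, with the 95% interval as a line and a filled point where the adjusted p was under 0.05 in edgeR. Trib3, Chac1 and Atf5 lie between 1.90 and 3.43, Ddit3, Ppp1r15a and Atf4 between 0.51 and 0.92, and the intervals of Atf3 and the 3 kinases include 0.

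Hearts also differed within a genotype. Control 1 was the lowest control for 7 of the 10 genes, and control 4 the highest for 5. Among the YY1 KO hearts, heart 4 was the lowest for 4 genes, Atf4, Trib3, Ppp1r15a and Eif2ak1, and the highest for Atf3 and Eif2ak4.

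Levels of different genes were compared per kilobase of exon, as CPM per kilobase. In controls Atf4 was the highest of the 10 at 51.1 (40.5 to 60.7 over 4 hearts), followed by Atf5 at 25.0 (21.0 to 27.8). Atf3 at 16.5, Ppp1r15a at 14.1 and Ddit3 at 9.998 came next, each overlapping its neighbour in this order. Eif2ak1 at 7.65 overlapped Ddit3 and was above Eif2ak3 at 2.95 (2.45 to 3.84). Eif2ak3, Eif2ak4 at 2.18, Chac1 at 2.13 and Trib3 at 2.00 were at the bottom with overlapping ranges.

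In YY1 KO hearts Atf5 was the highest at 93.0 (82.1 to 103.4), above the whole range of Atf4 at 72.6 (59.2 to 78.4). Trib3 moved from the bottom to 21.7 (13.7 to 25.9), where it overlapped Ppp1r15a at 23.3, Ddit3 at 19.0 and Atf3 at 16.9. Chac1 at 8.77 (5.39 to 10.99) overlapped Eif2ak1 at 7.74 (7.06 to 8.13). Eif2ak3 at 3.42 and Eif2ak4 at 1.79 were the lowest, and their ranges, which overlapped in controls, did not overlap here.

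**Figure D3:**
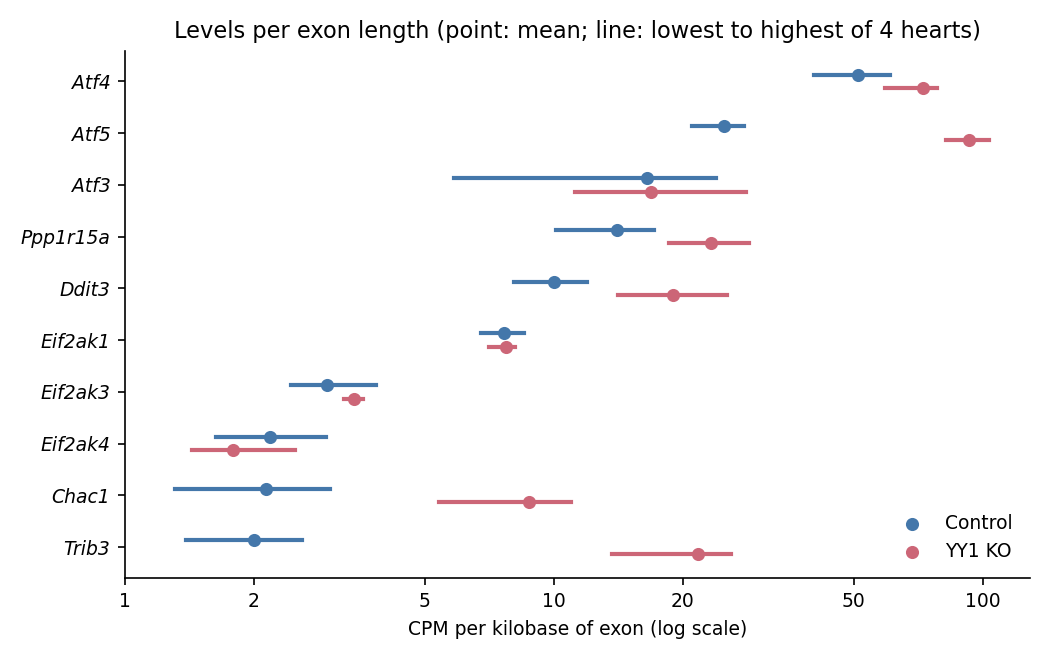
Level of the 10 genes in CPM per kilobase of exon on a log axis, as the mean (point) and the lowest to highest of 4 hearts (line) in controls (blue) and YY1 KO hearts (red). Atf4 leads in controls at 51.1 and Atf5 in YY1 KO hearts at 93.0, and Trib3 shifts from 2.00 to 21.7.

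Within the Y-positive hearts alone (2 against 2), the same 6 genes passed edgeR's test, where 12.7% of the 13626 tested genes were higher and 11.8% lower. The log2 fold changes of the 6 genes were 0.56 for Atf4, 1.99 for Atf5, 1.096 for Ddit3, 3.50 for Trib3, 2.55 for Chac1 and 0.77 for Ppp1r15a (adjusted p = 0.00184 to 0.0351). Within the Xist-positive hearts the values were 0.43, 1.76, 0.68, 3.32, 1.71 and 0.66 in the same order. There 0 of the 10 genes passed, and 0 genes passed among all those tested, with 3451 at an unadjusted p under 0.05. The lowest adjusted p of a member was 0.10. Atf3 was −0.77 in Y-positive hearts (adjusted p = 0.0526) and 0.74 in Xist-positive hearts (adjusted p = 0.506). The difference between those effects was 1.49 ± 0.77 (interaction term, edgeR; adjusted p = 0.812). The interaction p was under 0.05 for 0 of the 10 genes and for 702 of 13506 genes, 0 of them after adjustment. With a term for Xist-positive libraries beside genotype, 6 of the 10 genes were higher, against 20.5% of all tested genes.

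Close relatives of the members were compared next, since their names and sequences are alike while their part in the response differs. Relatives that are not among the 3 leading genes of a list were chosen for naming after their values were seen, and the differences between relatives were not tested. Trib2, a pseudokinase of the same family as Trib3, fell from 53.9 ± 8.97 to 32.0 ± 5.35 CPM (log2 fold change −0.75 ± 0.15; adjusted p = 0.00454, edgeR). Trib1, the remaining member of that family, measured 31.1 ± 8.75 and 31.2 ± 13.9 CPM. Chac2, which breaks down glutathione more slowly than Chac1, fell from 13.9 ± 2.07 to 8.89 ± 1.08 CPM (−0.65 ± 0.14; adjusted p = 0.00720, edgeR). Ppp1r15b encodes CReP, the constitutive counterpart of GADD34. It fell from 60.8 ± 8.97 to 47.1 ± 1.47 CPM (−0.37 ± 0.11; adjusted p = 0.0243, edgeR). In each of these families the stress-induced gene rose and a relative fell in the same hearts.

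**Figure D4:**
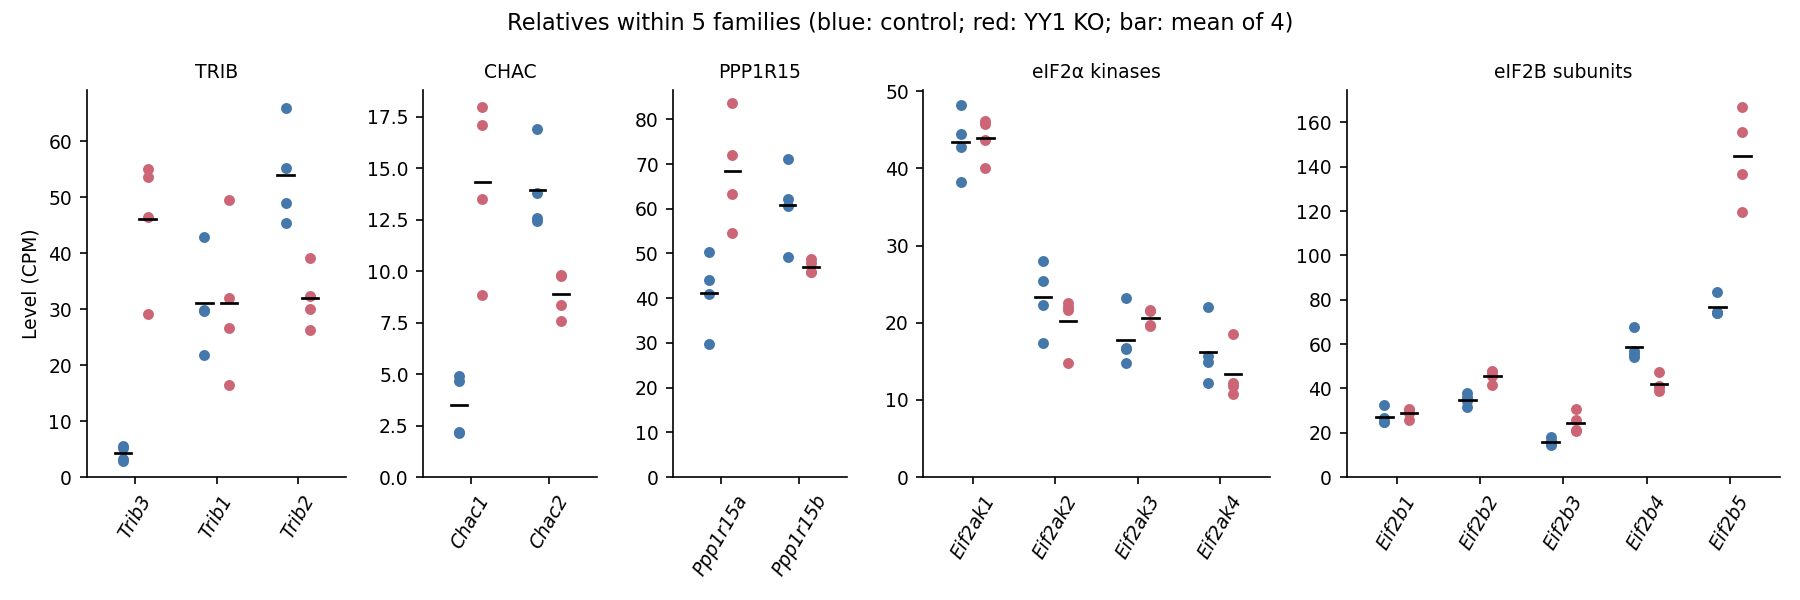
Levels in CPM, on axes that start at 0, of members and their relatives in 4 controls (blue) and 4 YY1 KO hearts (red), with a bar for each mean of 4. Trib3, Chac1 and Ppp1r15a are higher and Trib2, Chac2 and Ppp1r15b lower in YY1 KO hearts, the eIF2alpha kinases overlap, and Eif2b5 stands out among the eIF2B subunits.

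The list of eIF2 and its direct regulators holds the subunits of eIF2, those of its exchange factor eIF2B and proteins that act on the kinases and phosphatases. Of its 21 genes 6 were higher, 3 were lower and 12 did not pass, with a median log2 fold change of 0.088. The shares, 28.6% higher and 14.3% lower, were near those over all tested genes, 21.6% and 17.3%. Eif2b5, the catalytic subunit of eIF2B, rose from 76.6 ± 4.75 to 145 ± 20.7 CPM (0.92 ± 0.11; adjusted p = 0.000608, edgeR), with no overlap. The other eIF2B subunits did not move together. Eif2b3 and Eif2b2 rose by 0.62 and 0.38, Eif2b4 fell by 0.48, and Eif2b1 measured 0.088 and did not pass, all on the log2 scale. Eif2s2, the beta subunit of eIF2, rose from 105 ± 6.62 to 141 ± 9.18 CPM (0.43 ± 0.083; adjusted p = 0.00397, edgeR).

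Dele1, listed under its older symbol 0610009O20Rik, encodes the mitochondrial protein that carries a stress signal to HRI. Its levels were 181, 166, 123 and 131 CPM in controls and 59.8, 67.2, 62.2 and 86.3 CPM in YY1 KO hearts. The groups did not overlap, and the log2 fold change was −1.13 ± 0.16 (adjusted p = 0.00109, edgeR). Oma1, the protease that cleaves DELE1, averaged 37.7 ± 6.46 and 34.1 ± 1.46 CPM and did not pass (adjusted p = 0.373, edgeR). With DESeq2 the genes of the list that were lower numbered 5. The X-linked Eif2s3x followed the sex of the hearts, with 84.2 to 98.4 CPM in Xist-positive and 53.0 to 57.3 CPM in Y-positive libraries.

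Of 18 relatives of ATF4 in the ATF/CREB family and its C/EBP partners, 17 were tested, 5 were higher and 12 did not pass (median log2 fold change 0.057). The share higher was 29.4%, against 21.6% of all tested genes, of which 17.3% were lower. None was lower in edgeR, with 1 at an unadjusted p under 0.05 and 1 lower in DESeq2. Creb3, a membrane-bound factor of the secretory pathway, rose from 31.0 ± 4.97 to 63.2 ± 6.44 CPM (1.03 ± 0.13; adjusted p = 0.000651, edgeR). Atf1 rose by 0.58 ± 0.11, and Cebpg, a frequent dimer partner of ATF4, rose by 0.65 ± 0.13 on the log2 scale (adjusted p = 0.00329 and 0.00446, edgeR). Atf2 and Cebpd, named because the called genes are few, rose by 0.38 ± 0.095 and 0.89 ± 0.23 (adjusted p = 0.0130 and 0.0151). Cebpb measured 68.0 ± 20.3 and 79.6 ± 10.1 CPM and did not pass (adjusted p = 0.386).

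Among the lists, the amino acid response targets of ATF4 had the largest median difference. The lists were chosen with earlier results of these data known, so this order is a description and not a test. Of 22 tested genes 16 were higher (72.7%, against 21.6% of all tested genes) and 6 did not pass, with a median log2 fold change of 1.08. None was lower in edgeR, at an unadjusted p under 0.05 or in DESeq2. Asns, asparagine synthetase and a classic target, stood at 2.75, 3.56, 8.53 and 6.32 CPM in controls and at 69.7, 44.8, 61.3 and 70.8 CPM in YY1 KO hearts. Its log2 fold change of 3.53 ± 0.33 was close to that of Trib3 (adjusted p = 0.000246, edgeR). The smallest p-values were those of transfer RNA synthetases. Nars rose from 147 ± 9.31 to 409 ± 40.5 CPM (1.47 ± 0.10; adjusted p = 0.000109), Sars by 1.08 ± 0.085 and Cars by 1.38 ± 0.12 on the log2 scale (adjusted p = 0.000172 and 0.000203, edgeR).

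The list of other targets of ATF4 and CHOP also holds Trib1, Trib2 and Chac2, the relatives of Trib3 and Chac1 described above. Of its 16 genes 15 were tested, of which 5 were higher, 2 were lower and 8 did not pass (median log2 fold change 0.47). Higher genes made up 33.3% and lower genes 13.3%, against 21.6% and 17.3% of all tested genes. Stc2, a secreted glycoprotein, rose from 12.8 ± 2.48 to 25.4 ± 0.656 CPM (0.99 ± 0.14; adjusted p = 0.000967, edgeR). Sesn2, which restrains the growth kinase mTORC1, rose by 1.00 ± 0.15, and Eif4ebp1, which restrains cap-dependent translation, by 0.87 ± 0.15 on the log2 scale (adjusted p = 0.00139 and 0.00232, edgeR). The remaining called genes, the stress-induced Nupr1 and the cell death gene Bbc3, rose by 1.27 ± 0.24 and 0.91 ± 0.20 (adjusted p = 0.00388 and 0.00735). The hormone gene Fgf21, a familiar ATF4 target in muscle and liver, was at 0 to 0.253 CPM in all 8 hearts and was not tested. The 2 lower genes are the relatives Trib2 and Chac2.

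The ATF6 and IRE1 branches, which raise the folding capacity of the endoplasmic reticulum, had the opposite balance. Of 20 genes 1 was higher (5.0%, against 21.6% of all tested genes), 8 were lower (40.0%, against 17.3%) and 11 did not pass. The median log2 fold change was −0.31. Hspa5, which encodes the chaperone BiP, stood at 889, 698, 590 and 705 CPM in controls and at 388, 380, 417 and 453 CPM in YY1 KO hearts. The ranges did not overlap, and the log2 fold change was −0.82 ± 0.14 (adjusted p = 0.00215, edgeR). Sdf2l1 and Manf, both induced with BiP, fell by 0.93 ± 0.16 and 0.59 ± 0.12 on the log2 scale (adjusted p = 0.00226 and 0.00551, edgeR). Xbp1, the factor spliced by IRE1, measured 78.9 ± 8.89 and 65.5 ± 7.37 CPM and did not pass (adjusted p = 0.0854). The count of lower genes was 5 without YY1 KO heart 3, and the single higher gene, Mbtps2, which was named after its value was seen and encodes a protease that activates ATF6, was not called without controls 2 or 4 or YY1 KO heart 1.

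Of 13 mitochondrial stress proteases and chaperones 1 was higher, 5 were lower and 7 did not pass (median log2 fold change −0.037). That is 7.69% higher and 38.5% lower, against 21.6% and 17.3% of all tested genes. The matrix protease gene Lonp1 rose from 283 ± 9.97 to 468 ± 51.5 CPM (0.73 ± 0.10; adjusted p = 0.00109, edgeR). The chaperonin genes Hspe1 and Hspd1 fell by 0.65 ± 0.14 and 0.72 ± 0.16 on the log2 scale (adjusted p = 0.00584 and 0.00803, edgeR). Dele1 belongs to this list as well, and the protease genes Clpp and Htra2 fell by 0.48 ± 0.12 and 0.51 ± 0.18 (adjusted p = 0.0105 and 0.0465). Without control 1 the genes higher numbered 2.

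The immediate early genes, which respond to acute stimulation and to tissue handling, were read beside Atf3. Of 15 genes 1 was higher (6.67%, against 21.6% of all tested genes), 6 were lower (40.0%, against 17.3%) and 8 did not pass. The median log2 fold change was −0.57. Dusp1 fell from 106 ± 6.29 to 74.7 ± 3.03 CPM (−0.50 ± 0.075; adjusted p = 0.00137, edgeR). Nr4a1 fell by 1.48 ± 0.28 and Ier3 rose by 1.2 ± 0.22 on the log2 scale (adjusted p = 0.00364 and 0.00307, edgeR). Fos measured 12.6 ± 2.56 and 8.49 ± 3.47 CPM and did not pass (adjusted p = 0.186). The count of lower genes was 2 without control 2 or without YY1 KO heart 3. Over the 6 pathway lists together, without the immediate early genes and with each gene counted once, 34 of 105 tested genes were higher and 17 were lower. These shares were 32.4% and 16.2%, against 21.6% and 17.3% of all tested genes, and the median log2 fold change was 0.12.

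**Figure D5:**
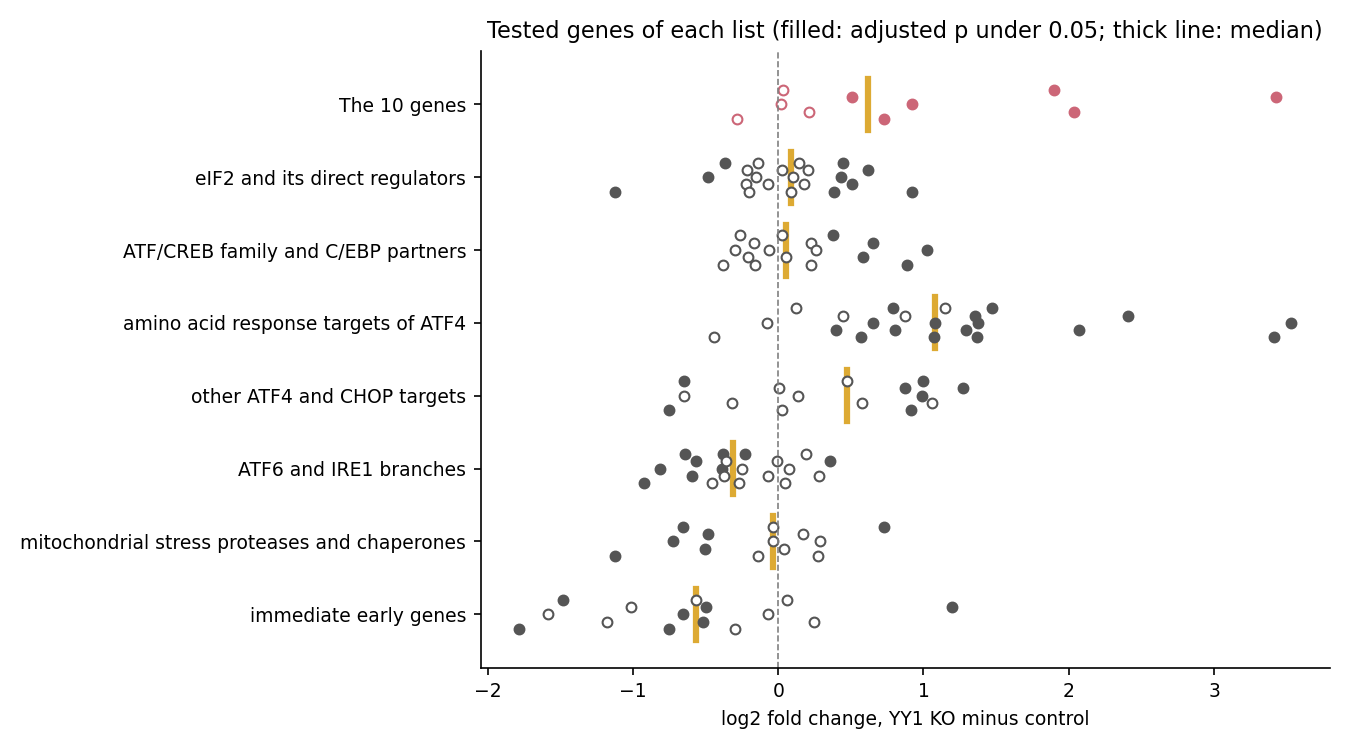
Log2 fold change of each tested gene of the 10 members and of the 7 lists, filled where the adjusted p was under 0.05 in edgeR, with the median of each list as a thick line. The median is 0.62 for the members and 1.08 for the amino acid response targets, near 0 for eIF2 regulators, the ATF/CREB family and mitochondrial genes, −0.31 for the ATF6 and IRE1 branches and −0.57 for immediate early genes.

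Markers of other cells moved with genotype in part. Of 6 endothelial markers 5 were lower in YY1 KO hearts (Kdr, Cdh5, Tie1, Emcn and Egfl7), and their summed level was 1156 to 1645 CPM in controls and 781.2 to 962.5 CPM in YY1 KO hearts, with no overlap. Neutrophil markers summed to 2.06 to 4.04 CPM in controls and 4.21 to 19.7 CPM in YY1 KO hearts, with S100a9 higher and 3 of 5 markers too low to be tested. Of 8 cardiomyocyte markers Mybpc3 was higher and Myl2 was lower (63575 to 90601 CPM in controls, 50221 to 77199 CPM in YY1 KO hearts). Of 6 fibroblast markers Pdgfra was higher (871.8 to 2244 CPM and 1259 to 2766 CPM), of 6 mural markers Rgs5 and Kcnj8 were lower (696.4 to 892.0 CPM and 522.2 to 746.2 CPM) and of 6 macrophage markers 0 passed (163.0 to 257.7 CPM and 184.9 to 237.8 CPM). The summed levels of lymphocyte, adipocyte, mesothelial and Schwann markers overlapped between genotypes, and no marker was at 0 in all 8 libraries. Beside these marker counts, 21.6% of all tested genes were higher and 17.3% were lower. The part of these cells in the differences of the 10 genes was not tested.

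For the 3 members with an absolute log2 fold change of at least 1, the tested genes with the most similar pattern were found by the root mean square difference of centred log2 CPM over the 8 libraries. For Atf5 these were Rab13 (0.13), Ttll11 (0.15) and Kif5a (0.16). For Trib3 they were Caly (0.13), Apobr (0.26) and Chrnb2 (0.29). For Chac1 they were Guca1b (0.28), Col7a1 (0.31) and Hist1h4i (0.36). None of these 9 genes is on the lists above. Rab13 averaged 6.45 CPM in controls and 26.9 CPM in YY1 KO hearts, Caly 0.0810 and 2.11 CPM, and Guca1b 0.670 and 2.63 CPM. The log2 CPM used for this measure includes a prior count of 2, which shrinks differences of genes near 0, such as Caly in controls. In the edgeR fit Caly had a log2 fold change of 4.54 ± 0.50, against 3.43 ± 0.27 for Trib3. The measure is taken over the same 8 hearts that show the genotype difference, and that difference is part of each pattern.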

How the data were processed

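For each of 8 mouse hearts the authors deposited a table of raw counts by gene. The authors trimmed with Trimmomatic and aligned to mm10 with STAR, per the submitters' processing notes. Versions and annotation were not given in the sources used here. Counts irrespective of strand were used. Reads not assigned to a gene (33.0 to 38.9%) were left out. Positions and exon lengths come from GENCODE M21 (GRCm38), promoter windows from RefSeq (GRCm38.p6). Genes were kept with filterByExpr (minimum count 10), leaving 13506 genes with 99.9% of gene reads. Genotypes were compared with edgeR 4.0.16 (robust quasi-likelihood test after TMM scaling, Benjamini-Hochberg adjustment over all tested genes, threshold 0.05), which was tested on simulated data. Libraries of a group differed beyond sampling noise (chi-square divided by its degrees of freedom: 14.6 to 97.4).

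The members and lists were chosen with earlier results of these data known. The naming rule took Yy1, the members, Xist and the Y-linked genes, and up to 3 genes of each list with the smallest p. It added up to 1 defining gene per list and the 3 nearest patterns of members past an absolute log2 fold change of 1. Further list genes are named outside this rule, among them relatives of the members, Eif2s3x, Nupr1, Bbc3, Clpp, Htra2 and Mbtps2. These further genes were named with their values known. Alternatives were RLE, upper quartile or library-size scaling, DESeq2 1.42.0, limma-voom (limma 3.58.1), 2 other filters, own-strand counts, a replicate block and leaving out each library. A term for Xist-positive libraries, fits within each kind and the interaction were added after the data were seen. The work ran in R 4.3.3 and Python 3.11.15 (matplotlib 3.10.9).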

Additional observations from a re-analysis of the deposited data

Results flagged for a closer look

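Atf4 in YY1 KO heart 4, at 139.5 CPM, stood apart from the other 3 YY1 KO hearts, at 178.4 to 184.9 CPM. The gap was 0.857 of the range of the group. In all, 22 groups of 4 libraries were examined in this way, and chance marks about 1 in 20 of them.

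Reads on the strand opposite to Atf5, which the comparisons do not use on their own, averaged 11.01 CPM in YY1 KO hearts (9.44 to 13.4) and 7.00 CPM in controls (6.62 to 7.48). Those opposite to Ddit3 averaged 6.36 CPM in YY1 KO hearts (4.93 to 7.86) and 3.01 CPM in controls (2.59 to 3.79). Neither pair of ranges overlapped.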

How the results depend on the processing

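Depth limits Trib3 and Chac1 in controls most, at 31 to 87 reads each, and the spread between mice limits Atf3. Under the alternatives 197 fold changes kept their direction and their side of the threshold, 10 turned direction, 12 lost and 1 gained a call, while 325 counts stayed within 1.5 times and 35 did not. Some alternatives hold fewer libraries, and where a value changed the cause was not tested. Over all genes, leaving out 1 library gave 2192 to 2905 genes higher and 1668 to 2439 lower. The Y-positive hearts gave 1730 higher, and the Xist-positive hearts 0 higher and 0 lower over all genes, and 0 in every count for the members and the lists. There Atf4 was 0.43, Atf5 1.76, Ddit3 0.68, Trib3 3.32, Chac1 1.71 and Ppp1r15a 0.66 (log2 fold change, none passing). The same-numbered hearts did not vary together (correlations −0.46, 0.34, −0.056 and 0.27, and not every heart correlated best with its own number), so the numbers do not pair them. With the number as a replicate block, 2210 genes were higher and 1816 lower, Atf4 was 0.51 (adjusted p = 0.0663, edgeR), and 0 genes of the ATF6 and IRE1 branches were higher. The block changed no other member's call. Leaving out 1 library gave 5 to 7 members higher, with Atf4 from 0.40 to 0.59 and Eif2ak3 from 0.12 to 0.35. Atf3 ran from −0.32 to 0.26, and was −0.0019 with a term for Xist-positive libraries and −0.77 in the Y-positive hearts. Eif2ak1 ran from −0.049 to 0.060, and was −0.014 with RLE size factors, −0.013 with DESeq2 and −0.037 in the Y-positive hearts. For the ATF6 and IRE1 branches, genes higher were 2 with library size alone, 0 in the Y-positive hearts and 0 to 2 with 1 library left out, and genes lower were 5 in the Y-positive hearts and 5 to 9 with 1 left out. For mitochondrial proteases and chaperones, genes higher were 2 with library size alone and 1 to 2 with 1 library left out. For eIF2 regulators, genes lower were 5 with DESeq2. For the ATF/CREB family, genes lower were 1 with RLE size factors, 1 with DESeq2 and 0 to 1 with 1 library left out. For amino acid response targets they were 0 to 1 with 1 left out. For immediate early genes they were 11 in the Y-positive hearts and 2 to 9 with 1 left out.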
